A study of Mus musculus with 3 samples.

Results

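Mast cells were examined among the leukocytes of 4T1 mammary tumors that lacked p38α in the tumor cells. Cells were taken as mast cells by their transcripts: a cell with at least 1500 unique molecular identifiers (UMIs, each 1 captured RNA molecule), at least 300 genes and at most 20% mitochondrial UMIs was kept, and a kept cell was a member when it held at least 3 of Mcpt1, Mcpt2, Mcpt4, Cma1, Tpsb2, Cpa3 and Kit and no Cd3e. This rule found 131 members among 12472 kept cells of 3 libraries, and 123 of them came from the p38KO library. The members were thus chosen by the detection of these 7 genes, so the values below describe them and support nothing further.

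Each library pooled the primary tumors of 3 female BALB/c mice, implanted at 6 to 8 weeks of age in the mammary fat pad with 200000 4T1 cells, a mouse mammary carcinoma line here carrying a luciferase reporter (4T1-luc). Tumors were collected on day 14 and live CD45+ cells were sorted for droplet single-cell RNA sequencing (scRNA-seq). The vehicle library came from p38α wild-type tumors in mice given DPBS from day 4 for 10 days, and the p38i library from such tumors in mice given the p38 inhibitor LY2228820 (ralimetinib) at 30 mg/kg by daily gavage over the same days. The p38KO library came from untreated mice with tumors of p38a-KO-H9, 1 clone in which Mapk14, the gene of p38α, was inactivated by CRISPR-Cas9, so the sorted leukocytes belonged to hosts that were not edited. With 1 library per group, condition, clone and library cannot be told apart, and no test between conditions was possible.

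Mast cells arise from bone marrow progenitors, depend on the receptor Kit and finish maturing in tissues. They store proteases, histamine and serotonin in granules on a scaffold of serglycin proteoglycan, and they release them when IgE on the receptor FcεRI meets antigen. In the mouse, the chymases Mcpt1 and Mcpt2 are known from mucosal mast cells, whereas Mcpt4, Cma1, the tryptase Tpsb2 and carboxypeptidase Cpa3 are known from connective tissue mast cells. Basophils share the IgE receptor but carry another protease, Mcpt8.

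The chymase genes lie together on chromosome 14. In the GENCODE annotation of GRCm38, Cma1 spans chr14:55941451-55944675, Mcpt1 chr14:56017971-56020384, Mcpt2 chr14:56042041-56044642 and Mcpt4 chr14:56059629-56062313, so that 121 kb hold 6 genes of the family from Cma1 to Mcpt4. Tpsab1 (chr17:25343245-25345562) and Tpsb2 (chr17:25366305-25369098) are neighbors on chromosome 17, Cpa3 lies at chr3:20215620-20242181 and Kit at chr5:75574916-75656722. Promoter windows of 5 genes are printed because they belong to 4 rule genes and to the basophil protease Mcpt8, whose RNA was nearly absent from the members. Each runs 250 bases up to the RefSeq start of the gene (GRCm38.p6, gene strand, 5′ to 3′), and capitals mark GATAA or, read on the other strand, TTATC, the letters bound by GATA factors such as Gata2. The windows are chr14:56017714-56017963 (plus strand) for Mcpt1, chr14:56062311-56062560 (minus) for Mcpt4, chr14:55944676-55944925 (minus) for Cma1, chr3:20242182-20242431 (minus) for Cpa3 and chr14:56085198-56085447 (minus) for Mcpt8.
Mcpt1: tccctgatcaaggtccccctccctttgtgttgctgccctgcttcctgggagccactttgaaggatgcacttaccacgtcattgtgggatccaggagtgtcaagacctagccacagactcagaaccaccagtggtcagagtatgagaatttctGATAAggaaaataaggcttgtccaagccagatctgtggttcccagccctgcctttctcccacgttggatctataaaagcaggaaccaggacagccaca
Mcpt4: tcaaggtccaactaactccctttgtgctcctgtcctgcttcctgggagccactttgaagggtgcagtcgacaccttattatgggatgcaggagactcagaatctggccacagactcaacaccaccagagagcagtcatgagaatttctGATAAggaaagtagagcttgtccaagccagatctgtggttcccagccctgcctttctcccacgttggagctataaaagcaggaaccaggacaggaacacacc
Cma1: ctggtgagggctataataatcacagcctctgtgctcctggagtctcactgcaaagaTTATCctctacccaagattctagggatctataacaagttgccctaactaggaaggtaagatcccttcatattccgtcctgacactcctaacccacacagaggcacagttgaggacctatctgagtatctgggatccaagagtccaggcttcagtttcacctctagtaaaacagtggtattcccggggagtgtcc
Cpa3: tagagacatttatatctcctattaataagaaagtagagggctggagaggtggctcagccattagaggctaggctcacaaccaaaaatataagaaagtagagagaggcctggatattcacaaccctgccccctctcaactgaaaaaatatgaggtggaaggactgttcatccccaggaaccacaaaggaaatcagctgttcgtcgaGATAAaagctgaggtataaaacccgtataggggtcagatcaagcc
Mcpt8: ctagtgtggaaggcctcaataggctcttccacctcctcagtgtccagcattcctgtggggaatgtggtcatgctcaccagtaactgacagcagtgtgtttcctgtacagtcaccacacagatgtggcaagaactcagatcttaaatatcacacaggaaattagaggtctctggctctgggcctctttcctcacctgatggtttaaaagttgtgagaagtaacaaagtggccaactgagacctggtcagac
The match stood 98 bases before the start in Mcpt1, 102 in Mcpt4, 194 in Cma1 and 45 in Cpa3, and the Mcpt8 window held none. No window was at hand for Mcpt2, Tpsb2 or Tpsab1, so whether they hold a match was not seen. Of 32817 RefSeq promoter windows of this length, 7413 (22.6%) held at least 1 such match. Mcpt1 and Mcpt4 shared a run of 53 bases, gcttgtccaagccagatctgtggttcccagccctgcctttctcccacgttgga, which began 83 and 87 bases before their starts. No other pair among Mcpt1, Mcpt4, Cma1, Mcpt8 and the neighboring Mcpt9 shared a run longer than 10 bases.

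The 3 libraries held 4588, 6343 and 5212 barcodes (vehicle, p38i and p38KO), of which 3820, 4793 and 3859 were kept with 20795195, 24210342 and 24374173 UMIs. Members were 2 of 3820 vehicle cells, or 0.0524% (95% Clopper-Pearson interval 0.00634 to 0.189), and 6 of 4793 p38i cells, or 0.125% (0.0460 to 0.272). In the p38KO library 123 of 3859 cells were members, or 3.19% (2.66 to 3.79). With no cell filter the shares were 0.131%, 0.110% and 3.05%, and the order of vehicle and p38i turned. The intervals cover counting error only, since cells of 1 library are not replicates. The library pairs shared 6, 5 and 9 barcodes, and no member was among them.

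**Figure D1:**
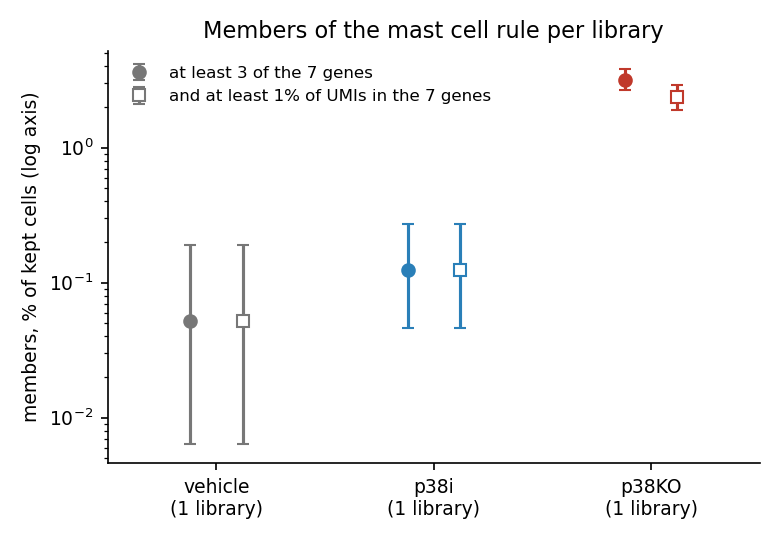
Members as a percentage of kept cells on a log axis for the vehicle, p38i and p38KO libraries, with 95% Clopper-Pearson intervals for counting error. Filled points show all members and open points members with at least 1% of their UMIs in the 7 genes. The p38KO library stood at 3.19% and 2.36%, above 0.0524% in vehicle and 0.125% in p38i by either measure.

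The members of the p38KO library fell into a large and a small range of mast cell RNA. In 91 members the 7 genes made up 1.12% to 25.5% of all UMIs (median 10.1%), and in 32 members 0.00945% to 0.725% (median 0.0816%). Only 3 cells lay between 0.5% and 2%. The line at 1% was drawn after these values were seen, and it is used below to separate cells rich in mast cell RNA from cells that passed the rule on a few molecules. All 72 members with all 7 genes and 17 of 19 with 6 lay above it, against 2 of 4 with 5 genes and none of 5 with 4 or of 23 with 3. Just inside the rule, the 23 members with 3 genes had a median of 0.0838% of UMIs in them (highest 0.381%). Just outside it, the 131 kept p38KO cells with 2 of the 7, with or without Cd3e, had a median of 0.0402% (highest 0.199%).

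The 32 members under 1% had a median of 7926.5 UMIs (1653 to 48839), against 3322 in the 91 and 3306.5 in the other kept cells. Of the 32, 11 also met a macrophage rule (at least 3 of C1qa, C1qb, C1qc, Apoe, Csf1r and Adgre1) and 7 a neutrophil rule (at least 3 of S100a8, S100a9, Csf3r, Cxcr2, Retnlg and G0s2). The gene part of the basophil rule given below was met by 1 of the 32, which also held Fcer1a and Il1rl1. The neutrophil marker list of the 32 summed to 17216 CPM (counts per 1000000 UMIs of the pooled cells) and their 16 macrophage and monocyte markers to 20062 CPM. These lists summed to 31082 and 24043 CPM in the other kept cells and 408 and 5595 CPM in the 91. Of mast cell genes outside the rule, Fcer1a had UMIs in 2 and Il1rl1 in 2 of these 32 cells, and Hs6st2 and Rab27b in none, against 84, 86, 47 and 55 of the 91. These genes, all among the 25 highest in the members, were thus common in the 91 and rare in the 32. Hdc went the other way, with UMIs in 37.5% of the 32 and 19.8% of the 91. Cd63 had UMIs in 53.1% of the 32 and 100% of the 91. Of the 91, 15 also met the rule of another class, and doublets were not removed. The 8 members of the vehicle and p38i libraries all lay above 1%, between 4.91% and 18.9%.

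**Figure D2:**
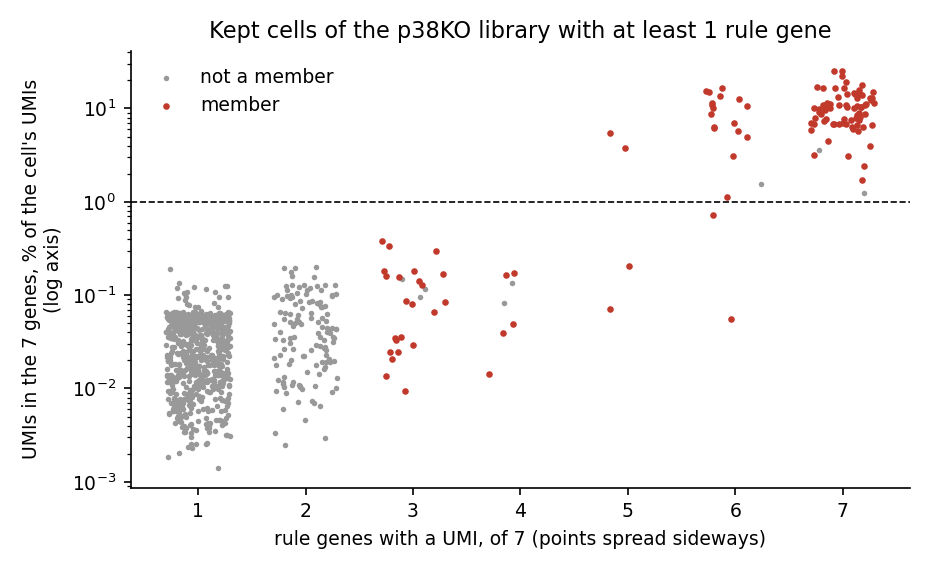
Each point is a kept cell of the p38KO library with at least 1 of the 7 rule genes; the x axis gives the number of rule genes with a UMI and the y axis (log) the percentage of the cell's UMIs in them. Members (red) with 3 genes stay at or below 0.381%, while those with all 7 all lie above the dashed line at 1%.

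RNA of the protease genes of the rule was also found outside the members. The 6 protease genes of the rule summed to 88.7 CPM (95% Poisson interval 84.9 to 92.5) in the other kept cells of the p38KO library, to 4.76 CPM (3.87 to 5.80) in vehicle and to 2.03 CPM (1.499 to 2.68) in p38i. Their make-up differed: Cma1 held 13.2% of these UMIs in p38KO, 38.4% in vehicle and 61.2% in p38i, and Mcpt2 36.9%, 11.1% and 2.04%. Mcpt2 had a UMI in 7.47% of those p38KO cells, and 3.29% after each cell was thinned to 1500 UMIs. After thinning it was 1.86% in macrophage-rule cells, 3.50% in neutrophil-rule cells and 3.54% in T-rule cells (at least 2 of Cd3d, Cd3e, Cd3g and Trac). These classes had median depths of 9914, 2109 and 4914 UMIs before thinning. The rule asked for at least 3 genes, so cells with Mcpt2 alone were left outside the members by the selection. Of 9 p38KO cells left out for Cd3e alone, 4 had 1.54%, 11.3%, 3.57% and 1.24% of their UMIs in the 7 genes and also held Cd3d and Cd3g. These 4 cells carried 56.2% of the protease UMIs outside the members, and without them the other p38KO cells stood at 38.8 CPM (36.4 to 41.4). Doublets were not removed, and their part in these cells was not tested.

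Against the other 3736 kept cells of the p38KO library, 249 of 12486 genes with at least 20 counts (1.99%) were at least 2-fold higher in the 123 members and 655 (5.25%) at least 2-fold lower, with 10 CPM added to both sides. In the 91 members with at least 1%, 391 of 12474 (3.13%) were higher and 1629 (13.1%) lower. The median log2 ratio over all genes was -0.14 for the members and -0.22 for the 91, and the 7 rule genes held 102850 CPM of the 91 against 99.0 CPM of the other cells. Higher and lower below mean this 2-fold difference in summed CPM within 1 library and imply no test. These shares over all genes stand beside the counts of every gene list below. Because the rule chose these cells by their RNA, nothing is read from the counts of any list against that background. Values are for the 91 unless stated otherwise, and UMIs counted at transcript 3′ ends were not scaled by gene length.

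Chymases led the profile. Mcpt2 had 45206 CPM (44577 to 45842) and was present in 91 of 91 cells, from 2618 to 122723 CPM per cell with a median of 37240. In the other kept cells it had 32.7 CPM, a 1382-fold ratio, and 12.9 CPM and 3511-fold without the 4 Cd3e-positive cells rich in mast cell RNA. The ratios of the 6 proteases and Tpsab1 given here all rest on those 4 cells in this way, and without them ranged from 1627-fold (Tpsb2) to 3511-fold. Mcpt1 had 24281 CPM (23821 to 24748), with UMIs in 84 cells and a range from 0 to 102877 around a median of 14874. Cma1, also a chymase, had 10701 CPM (10396 to 11013) and ranged from 254 to 30610 per cell (median 9179). Mcpt4 was the least abundant of the 4 at 5019 CPM (4811 to 5234), in 86 cells, up to 21200 (median 4458). Mcpt2 and Cma1 were thus found in every one of the 91 cells, whereas Mcpt1 and Mcpt4 were missing from a few. Mcpt1 and Mcpt2 are related genes, and reads shared between them could be assigned to either, which was not tested. A cell with no UMI of Mcpt1 had 78579 CPM of Mcpt2.

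The tryptases, which form tetramers on heparin, followed. Tpsab1, which the rule did not name, had 21648 CPM (21213 to 22089) in 91 of 91 cells, from 937 to 68941 with a median of 21394, and 21.2 CPM in the other cells, a 1021-fold ratio. Tpsb2 had 9579 CPM (9291 to 9874) in 89 cells (median 9821, up to 26947). Tpsab1 and Tpsb2 are related genes, and reads shared between them could likewise be assigned to either, which was not tested. Cpa3, the granule carboxypeptidase, had 7423 CPM (7170 to 7683) in 91 cells, from 468 to 27730 (median 7722). Kit, the receptor for stem cell factor, was far lower, with 640 CPM (567 to 720) in 84 cells, up to 3265 (median 569), and its ratio of 61.7-fold was the smallest of the 7. Over all 123 members Mcpt2 had 26538 CPM, Mcpt1 14270, Tpsab1 12775, Cma1 6297, Tpsb2 5669, Cpa3 4376, Mcpt4 2957 and Kit 395.

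Other granule proteases were scarce. Of 12 listed, 10 were in the files and 4 had enough counts, of which 1 (Tpsab1) was higher and 0 lower. Tpsg1, a membrane-anchored tryptase, had 34.4 CPM in 12 cells and no UMI in the 3736 kept cells that were not members. Ctsg, the gene of cathepsin G, had 11 UMIs in 2 cells, Cma2 5 UMIs in 5 cells and Mcpt9 1 UMI. Gzmb, the cytotoxic granzyme, stood at 126 CPM in 8 cells and 114 CPM in the rest.

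**Figure D3:**
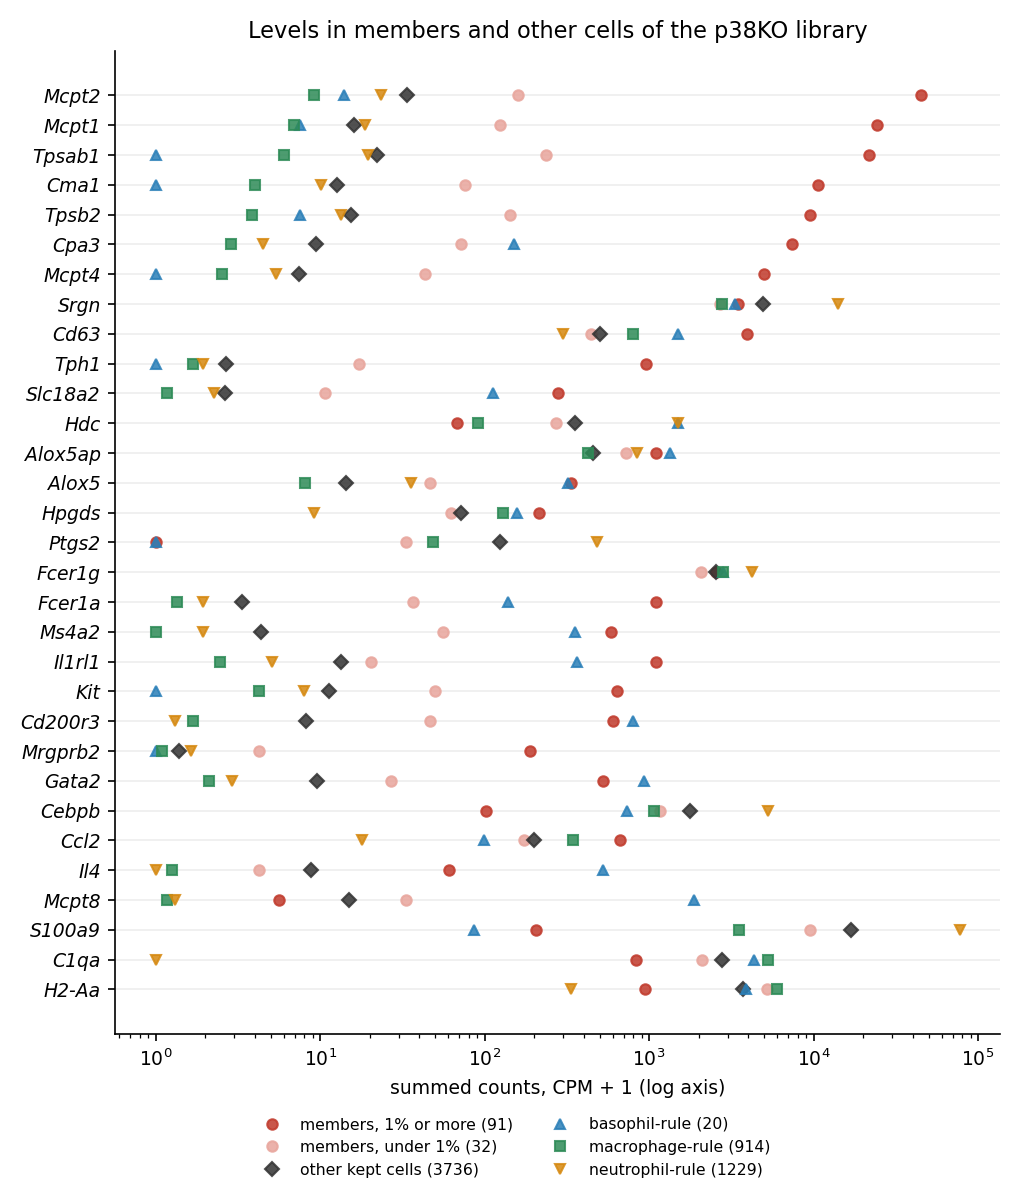
Summed counts in CPM + 1 on a log axis for selected genes in the members with at least 1%, the members under 1%, the other kept cells and the basophil, macrophage and neutrophil classes of the p38KO library. Mcpt2 at 45206 CPM and Tph1 at 961 CPM lie far to the right of the other cells, whereas Hdc at 66.5 CPM lies to the left of the neutrophil class at 1503 CPM.

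Genes for filling the granule were in part higher. Of 20 genes for granule storage and proteoglycan synthesis, 6 were higher and 1 lower in the members, and 6 and 3 in the 91. Srgn, the core protein of serglycin, did not reach 2-fold: it had 3457 CPM (3285 to 3636) in 89 cells and 4941 in the rest, where neutrophil-rule cells held 14058. Hs6st2, which adds sulfate to heparan chains, had 197 CPM (158 to 244) in 47 cells and 0.212 in the rest, a 932-fold ratio. Ndst2, needed for heparin synthesis, had 73.4 CPM against 17.9. Slc18a2, the vesicle transporter of histamine and serotonin, had 278 CPM (230 to 332) in 62 cells and 1.65 in the rest (168-fold). Rab27b, a GTPase of granule release, had 245 CPM in 55 cells and 2.96 in the rest (82.9-fold). Lyst, whose loss gives giant granules, was lower at 6.88 CPM against 144.

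Among the enzymes of stored and lipid mediators, Tph1, Ddc, Alox5, Alox5ap, Ltc4s and Hpgds were higher, and Hdc and Ptgs2 were lower. Of 12 with enough counts, 4 were higher and 2 lower in the members, and 6 and 2 in the 91. Tph1, the first enzyme of serotonin synthesis, had 961 CPM (871 to 1058) in 79 cells, up to 5622 (median 704), against 1.69 CPM, a 568-fold ratio. Ddc, the next enzyme, had 110 CPM in 33 cells against 0.212. Hdc, which makes histamine, had 66.5 CPM (44.6 to 95.5), with UMIs in 18 of the 91 cells and at most 2480 in 1 cell, and was 5.35-fold lower than in the other cells at 356. Within those, neutrophil-rule cells had 1503 CPM of Hdc and macrophage-rule cells 90.2. After thinning to 1500 UMIs, Hdc had a UMI in 9.89% of the 91 (unthinned 19.8%) and in 70.5% of neutrophil-rule cells. Hdc is a usual mast cell gene, and here the label and this marker did not go together.

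Of the leukotriene genes, 3 were higher. Alox5, the 5-lipoxygenase, had 335 CPM (283 to 394) in 63 cells against 13.4 (24.97-fold), its activator Alox5ap 1103 against 456 and Ltc4s, the leukotriene C synthase, 64.2 against 21.7. Lta4h, which makes leukotriene B, stood at 34.4 and 24.8 CPM, and Pla2g4a, which frees arachidonic acid, at 32.1 and 32.8. Hpgds, which makes prostaglandin D, had 213 CPM in 48 cells against 70.9 (3.01-fold). Ptgs1, the constitutive cyclooxygenase, stood at 89.5 and 93.1 CPM. Ptgs2, the inducible one, had no UMI in the 91 cells, where a count of 0 allows up to 6.88 CPM (3 UMIs), and 122 CPM in the rest.

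The IgE receptor was present. Of 17 genes of the receptor and its signaling with enough counts, 6 were higher and 2 lower in the members, and 7 and 5 in the 91. Fcer1a, the α chain that binds IgE, had 1108 CPM (1011 to 1211) in 84 cells, up to 4821 (median 1134), against 2.37 (468-fold). Ms4a2, the β chain, had 583 CPM (513 to 659) in 76 cells against 3.39 (172-fold). Fcer1g, the γ chain that many myeloid cells use, was level at 2565 and 2560 CPM. The adaptors Lat (319 against 61.3 CPM) and Lat2 (856 against 106) and the kinase Btk (108 against 31.9) were higher, and the kinase Syk was lower at 41.3 against 123. The tetraspanins parted: Cd63, a granule membrane protein, had 3916 CPM (3732 to 4106) in 91 of 91 cells against 503 (7.78-fold), while Cd9 had 34.4 CPM against 512 and was 14.9-fold lower.

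Of 37 surface receptors with enough counts, 9 were higher and 8 lower in the members, and 10 and 13 in the 91. Il1rl1, the receptor of interleukin 33, had 1099 CPM (1003 to 1202) in 86 cells, up to 4622 (median 1108), against 12.4 (88.9-fold). Cd200r3, an activating receptor shared with basophils, had 603 CPM in 83 cells against 7.15. Mrgprb2, the receptor through which peptides and some drugs activate connective tissue mast cells, had 188 CPM (150 to 233), but in 38 cells only, against 0.381 in the rest. Mrgprb1, a related gene, had UMIs in 10 cells (110 CPM), and reads shared within this family could be assigned to either. Itga2b, an integrin of platelets and progenitors, had 177 CPM in 45 cells against 1.44, and the prostaglandin E receptor Ptger3 50.5 against 0.889. The chemokine receptors Cxcr2 (4.59 against 275 CPM) and Ccr1 (50.5 against 594) and the complement receptor C5ar1 (39.0 against 238) were lower, and Csf2rb, a chain of cytokine receptors, stood at 296 and 313. Itgae, an integrin chain that binds E-cadherin, had no UMI, against 38.4 CPM in the rest.

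Of 20 transcription factors with enough counts, 5 were higher and 2 lower in the members, and 6 and 5 in the 91. Gata2, required for mast cell development, had 525 CPM (459 to 598) in 73 cells against 8.63 (60.8-fold). Its partners Tal1 (96.3 against 1.31 CPM) and Gata1 (36.7 against 0.466) were higher too, as was Mitf (84.9 against 17.6), a driver of Kit and protease genes. The myeloid factors Cebpb (101 against 1776 CPM, 17.6-fold lower), Spi1 (80.3 against 360) and Cebpa (6.88 against 44.4) were lower.

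More of the listed cytokine genes were lower than higher, as over all genes. Of 28 cytokine and chemokine genes with enough counts, 3 were higher and 12 lower in the members, and 3 and 13 in the 91. Over all genes, 1.99% were higher and 5.25% lower in the members, and 3.13% and 13.1% in the 91. Ccl2, which draws monocytes, had 661 CPM (587 to 742) in 71 cells, up to 8355 in 1 cell (median 458), against 200 in the rest (3.31-fold). Il4 had 59.6 CPM in 18 cells against 7.79, and Il6 32.1 CPM in 10 cells against 3.77. Tnf stood at 20.7 and 28.9 CPM. Cxcl2 was 130-fold lower (18.4 against 2395 CPM), and Il1b (119 against 3258), Ccl3 (20.6 against 404), Ccl4 (59.6 against 678) and Vegfa (9.18 against 79.5) were lower with it. Il13 had 1 UMI, and Il5, Il9, Il10, Il3, Csf2, Areg, Cxcl1, Tslp and Il33 had none in the 91 cells, with the same limit of 6.88 CPM.

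Immediate-early genes, which cells switch on within minutes of a stimulus, were mixed: of 21, 1 was higher and 6 lower in the members, and 3 and 8 in the 91. Fosb (190 against 29.6 CPM), Jun (1090 against 430) and Ier2 (466 against 188) were the higher ones, and Fos was level at 250 and 229. Atf3 (2.29 against 183 CPM) and Btg2 (16.1 against 324) were lower. Of all genes, 1.99% were higher and 5.25% lower in the members, and 3.13% and 13.1% in the 91. In the p38 pathway, 0 of 19 genes with enough counts were higher and 2 lower in the members, and 0 and 3 in the 91. These were Mapkapk2, the kinase directly below p38 (41.3 against 205 CPM), and the phosphatases Dusp1 (50.5 against 379) and Dusp16 (11.5 against 38.4). Mapk14 itself had 18.4 CPM in 8 of the 91 cells and 39.3 in the rest, with 33.7 in the other vehicle cells and 42.1 in the other p38i cells, which is no check of the knockout, since the edited cells were not those sorted. Of 21 cell cycle genes, 0 were higher and 0 lower in the members, and 1 (Tyms, 64.2 against 25.1 CPM) and 0 in the 91. Mki67 had UMIs in 7 of the 91 cells.

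The genes highest over the other cells were the same 25 in the 123 members and in the 91, and 7 of them were named by the rule. All 25 were at least 36.9-fold above the rest in the members. Beside the genes described above they included Serpinb1a, a protease inhibitor (1129 against 9.39 CPM), Cyp11a1, the first enzyme of steroid synthesis (918 CPM in 81 cells against 14.9), Cd34, a surface sialomucin (184 against 1.14), Cited4 (268 against 4.23), Rprm (268 against 0.423) and Car8 (264 against 1.90). At the other end, the 10 lowest in the 123 members were the T cell genes Cd3e, which the rule excluded, Cd3g, Cd3d, Trac and Thy1, the immunoglobulin genes Igkc and Igha, the chemokines Cxcl3 and Cxcl10, and Cstdc5.

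Markers of other cells were low but not gone. The 14 neutrophil markers summed to 408 CPM in the 91, led by S100a9 (204 CPM in 27 cells against 16830), with 11 of 13 lower and 0 higher. Il1r2, Camp, Ltf and Ly6g were at 0. The 16 macrophage and monocyte markers summed to 5595 CPM, all 16 lower, and Apoe carried 2069 CPM of this in 30 cells with a median of 0. The 8 MHC class II genes, all lower, summed to 5455 CPM against 21699. T and NK cell markers summed to 200 CPM against 1600, with 12 of 14 lower. The NK cell marker Ncr1, the most abundant of them, was not lower. It had 61.9 CPM in 10 cells against 52.4 in the rest, and 88.3 CPM in the 76 cells that met no other class rule. In the members as a whole the lower counts were 11 of 13 for neutrophil, 9 of 16 for macrophage, 1 of 8 for MHC class II and 9 of 14 for T and NK markers. Of 11 B cell and dendritic cell markers, 1 (Xcr1, in 6 cells) was higher and 2 lower in the members, and 0 and 6 in the 91. Among 8 tumor and stromal markers, 0 were higher and 3 (Krt18, Krt14 and Cdh1) lower in either set. Of 3 red cell and platelet markers, 1 (Itga2b) was higher. Among the 91, 15 cells also met another class rule (11 macrophage, 3 neutrophil, 2 basophil, 1 T cell), and in the 76 without them the macrophage list summed to 288 CPM and MHC class II to 271 CPM. Median mitochondrial content was 8.42% in the 91 and 2.01% in the other kept cells, and its part in the levels was not tested.

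Basophils, which share the IgE receptor, were represented by 20 basophil-rule cells (at least 2 of Mcpt8, Prss34 and Cd200r3, no Cd3e, not members). Of 11 basophil markers with enough counts, 6 were higher and 1 lower in the members than in all other cells, and 7 and 1 in the 91, since several are shared with mast cells. Mcpt8 had 1886 CPM (1675 to 2117) in 20 of 20 basophil-rule cells and 4.59 CPM (0.556 to 16.6) in the 91, from 2 UMIs, and Prss34 had none in the 91. Kit, Cma1, Mcpt4, Tph1, Mrgprb2 and Hs6st2 had no UMI in the basophil-rule cells, where a count of 0 allows up to 19.6 CPM. Mcpt8 and Cd200r3 chose the basophil-rule cells and the 7 rule genes kept members out of them, so these values describe the selection. Tph1, Mrgprb2 and Hs6st2 were in neither rule. Genes found in both sets differed in degree. Fcer1a was 8.08-fold higher in the 91 (log2 3.01, counting interval 2.39 to 3.72), Il1rl1 3.01-fold (1.59, 1.19 to 2.01), Cd63 2.61-fold (1.38, 1.18 to 1.59) and Ms4a2 1.65-fold (0.73, 0.30 to 1.18). Cyp11a1 (1312 CPM) and Gata2 (927 CPM) were somewhat higher in basophil-rule cells, and Alox5 was level at 320 and 335 CPM (log2 0.07, -0.41 to 0.56). Hdc (1508 CPM), Il4 (522), Il6 (366), Ccl3 (2924), Ccl4 (2147) and Hgf, the hepatocyte growth factor (509 against 13.8), all stood higher in the basophil-rule cells.

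The 91 cells varied in which protease led. Among the 6 proteases of the rule, Mcpt2 was the most abundant in 68 cells, Mcpt1 in 17, Tpsb2 in 4 and Cma1 and Cpa3 in 1 each, and Mcpt4 led in 0. Mcpt1 and Mcpt2 together made up 9.09% to 87.6% of the protease UMIs of a cell (median 65.3%, quartiles 54.2 and 73.4) and more than 50% in 75 cells. The rule asked for at least 3 of the 7 genes together, so their joint presence describes the selection: 81 cells held Mcpt1 and Mcpt4 and 84 held Mcpt1 and Cma1, and Mcpt1 was found with the receptor Mrgprb2 in 34. Across the 91 cells of this 1 library, Spearman's rho of CPM was 0.55 between Tpsb2 and Cpa3 and 0.51 between Mcpt2 and Cma1, but -0.29 between Mcpt1 and Tpsb2. The cells share their library and differ in depth, and the values of a cell share a common total.

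**Figure D4:**
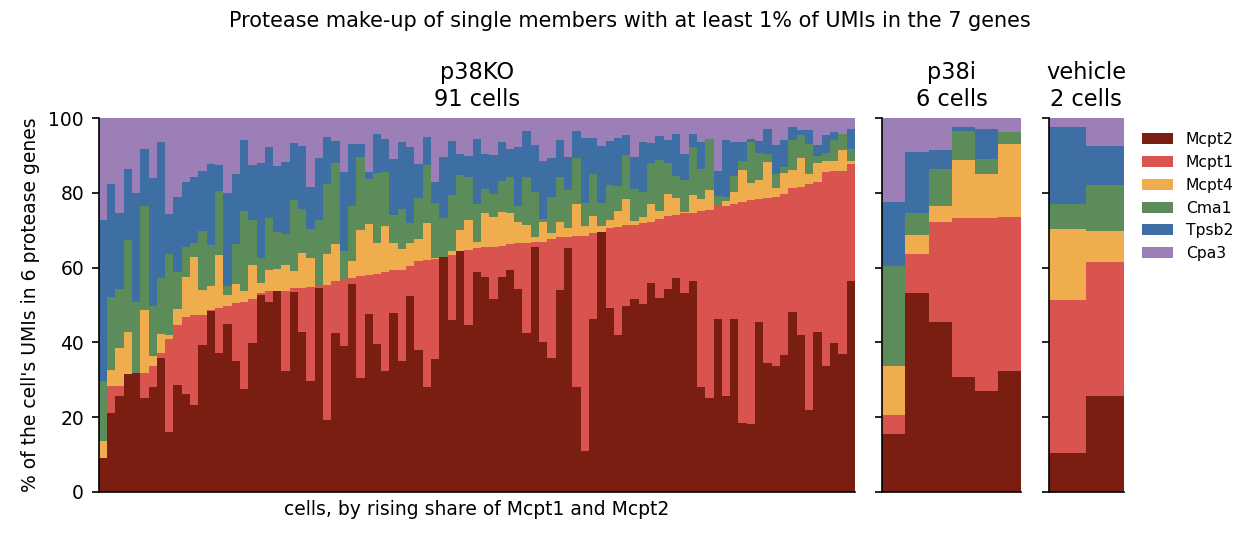
Each bar is 1 member with at least 1% of UMIs in the 7 genes, split into the percentages of its UMIs in 6 protease genes and ordered within each library by the share of Mcpt1 and Mcpt2. Sorted in this way, the 91 p38KO cells run from 9.09% to 87.6%, with Mcpt2 the broadest band in most of them.

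The 8 members of the other libraries were few, but each was rich in protease RNA. In the vehicle library the cells had 1879 and 4486 UMIs, with 138 and 249 of Mcpt1, 35 and 179 of Mcpt2, 64 and 57 of Mcpt4 and 69 and 72 of Tpsb2. In the 6 p38i cells Mcpt1 ranged from 2661 to 87074 CPM (median 39335), Mcpt2 from 7982 to 57295 (median 43534) and Mcpt4 from 2413 to 28739 (median 14323). Fcer1a was summed at 786 CPM in vehicle and 1041 CPM in p38i, and Mcpt8 had 0 UMIs in all 8.

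Summed Mcpt4, a gene of the rule, was lower in the p38KO cells, with 1 library per group and no test. The intervals given cover counting error only, since cells of 1 library are not replicates. The p38KO cells had 5019 CPM of Mcpt4, against 13017 in the 6 p38i cells (log2 -1.37, counting interval -1.54 to -1.20) and 19010 in the 2 vehicle cells (-1.92, -2.19 to -1.65). Of the 325 Mcpt4 UMIs in p38i, 157 were in 1 cell, and without it p38i had 8614 CPM (log2 -0.78). None of the 91 exceeded the highest p38i cell or the highest vehicle cell, but 65 of 91 were at or above the lowest p38i cell and 3 at or above the lower vehicle cell, so the ranges overlapped. Mcpt1 had 24281 CPM in the p38KO cells, against 40373 (log2 -0.73, -0.83 to -0.64) and 60801 (-1.32, -1.47 to -1.17), and the ranges again overlapped. Without the p38i cell that held 431 of the 1008 Mcpt1 UMIs, p38i had 29584 CPM (log2 -0.28). For Mcpt2 the values were 45206, 40574 and 33621 CPM (log2 0.16 against p38i and 0.43 against vehicle). Without the vehicle cell that held 179 of the 214 Mcpt2 UMIs, vehicle had 18627 CPM (log2 1.28), from 1 cell. Without its highest cell, p38i had 35890 CPM (log2 0.33). As a share of the 6 proteases, Mcpt1, Mcpt2 and Mcpt4 made up 23.8%, 44.2% and 4.91% in p38KO, 34.9%, 35.1% and 11.3% in p38i and 37.5%, 20.7% and 11.7% in vehicle.

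**Figure D5:**
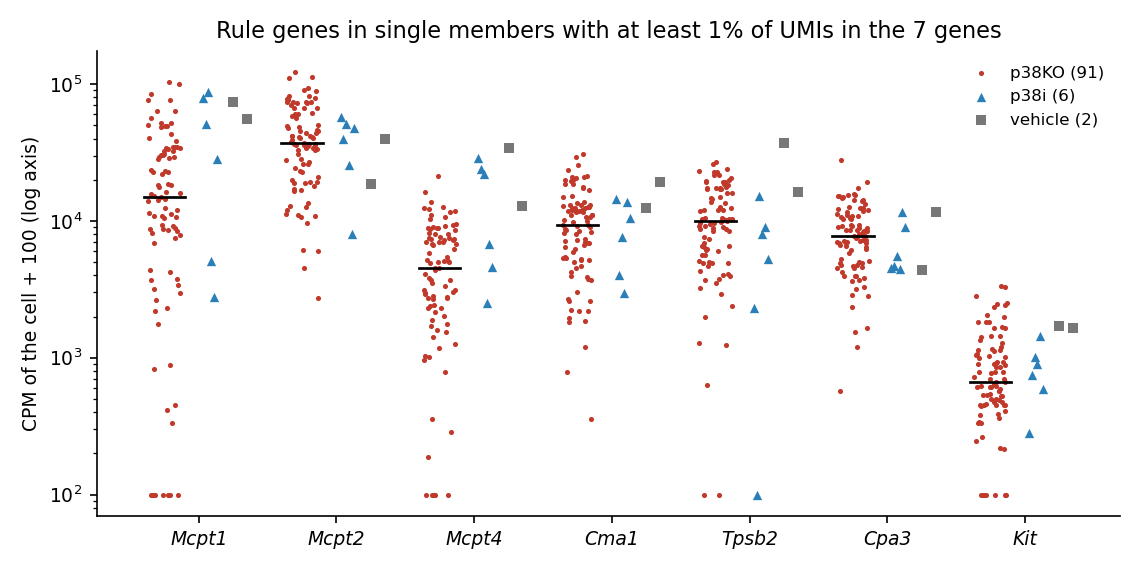
CPM + 100 of each rule gene in single members with at least 1%, on a log axis, for 91 p38KO cells (black line, median), 2 vehicle cells and 6 p38i cells. For Mcpt4 the highest p38i cell (28739 CPM) and vehicle cell (34061 CPM) lie above every p38KO cell, as does the highest vehicle cell for Tpsb2 (36722 CPM), and for each gene the ranges overlap.

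Hdc was at 1257 CPM in the vehicle cells, from 7 UMIs in 1 and 1 in the other, and at 80.1 CPM in p38i, from 2 UMIs in 1 of 6 cells. Ccl2 had 38 UMIs in the vehicle cells (5970 CPM), 35 of them in 1 cell, and 761 CPM in p38i. Tph1 was summed at 961 CPM in p38KO, 1842 in p38i and 1885 in vehicle. Single cells decided some of these values. Cma2, a chymase of the same cluster, had 32 UMIs in p38i (1282 CPM), and 30 were in 1 cell that had no Tpsb2 or Tpsab1. Gzmb had 19 UMIs in 3 p38i cells, 13 of them in 1. Kit (640 and 641 CPM) and Cd63 (3916 and 3725 CPM, log2 0.07, -0.23 to 0.39) were level between p38KO and p38i. In vehicle Kit had 10 UMIs (1571 CPM) and Cd63 13 UMIs (2042 CPM), all 13 in 1 of the 2 cells, and 12 of the 91 p38KO cells exceeded the highest vehicle cell in Kit.

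Over all genes with enough counts, 1567 of 4472 (35%) were at least 2-fold higher and 481 (10.8%) lower in the 123 p38KO members than in the p38i members, and 3087 of 4394 (70.3%) and 645 (14.7%) against the vehicle members. Both comparisons share the p38KO cells. Since 1 UMI was worth 40.1 CPM in the p38i members and 157 CPM in the vehicle members, a gene at a lower level could have no UMI in them. The 10 genes that stood highest over p38i were H2-Aa, H2-Eb1, C1qa, C1qb, C1qc, Ccl8, Cxcl2, Gatm, Spp1 and Ccl12, with no UMI in the p38i cells, and over vehicle Lyz2, Apoe, H2-Aa, S100a8, H2-Eb1, H2-Ab1, Cd52, C1qa, Ifitm3 and Il1b, likewise. H2-Aa had a UMI in 44 of the 123 members (2728 CPM) and C1qa in 30 (1349 CPM). In the 91 these genes had 950 and 828 CPM, and in the 76 that met no other class rule 88.3 and 19.6 CPM. In the 91, 560 of 2596 genes (21.6%) were higher and 239 (9.21%) lower than in p38i. Among the lowest against p38i were Cma2, Gzmb, Arpc1a, Ldah, Snap47, Kcne3, Gmpr, Smad1 and Scin, and against vehicle Cd69, Socs2, Dusp12, Abhd16a, Ccl2, Slc35c2, Pakap, Yme1l1, Adar and C2cd5. Of those named, Arpc1a rested on 13 UMIs in the p38i cells, Cd69 on 8 UMIs in 1 vehicle cell, and the others beside Cma2, Gzmb and Ccl2 on at most 5.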

How the data were processed

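Droplet 3′ libraries were made from live CD45+ tumor cells. The authors deposited filtered UMI counts per gene and cell (unit: counts, not normalized) from Cell Ranger 6.0.0 per the file headers, with build mm10, R 4.2.1 and Seurat 5 named in the submitters' processing notes. Here, counts of kept cells were summed per class and library (Python 3.11.15, numpy 2.4.6, pandas 2.3.3, scipy 1.17.1, matplotlib 3.10.9). Ratios were log2 of CPM + 10, called at 2-fold with at least 20 counts over both sides. Intervals (95%) are Poisson for CPM, exact binomial for ratios, shown without the added 10, and Clopper-Pearson for shares. A count of 0 was taken to allow 3 counts. Fold values in the text are ratios of CPM. Calls were tested on simulated data. These were pooled counts without variation between cells, changed in abundant genes only, so calls of changed genes near 20 counts were not tested. With 1 library per group, no p-value was computed. No doublet caller was run and no doublets were removed. Members and gene lists were chosen with earlier results of these data known. Named genes were those of the rule, of the lists, the 25 highest and 10 lowest against other cells (at least 100 CPM, and a UMI in 25% of members for the highest, without mitochondrial, ribosomal and unnamed genes), and the 10 in each direction between libraries. Genes named beyond these, the line at 1% and the values without single cells were chosen after values were seen. Some of the 25 highest genes and of the 10 between libraries are not reported here. Alternative rules, filters and scalings were computed.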

Additional observations from a re-analysis of the deposited data

Results flagged for a closer look

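Barcodes below the cell filter, which no comparison used, also held mast cell RNA. In the p38KO library 36 barcodes met the 7-gene rule but failed the filter, against 4 in vehicle and 1 in p38i. They were 2.66% of the 1353 p38KO barcodes that failed, and members were 3.19% of those kept. In vehicle these shares were 0.521% and 0.0524%, and in p38i 0.0645% and 0.125%. With no filter, members were 0.131% of vehicle, 0.110% of p38i and 3.05% of p38KO barcodes, so that vehicle and p38i changed places. In 25 of the 36, the 7 genes made up at least 1% of UMIs (1.00% to 16.7%, median 5.74%). Of these 25, 15 had over 20% mitochondrial UMIs and 19 had under 1500 UMIs.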

How the results depend on the processing

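No paired analysis was possible because each group had 1 library. Of 46 alternatives, 28 stayed within 1.5 times the reported count, or within the interval of the reported share, and 18 moved. With no cell filter the order of the vehicle (0.131%) and p38i (0.110%) shares turned. The p38KO share was 5.86% with at least 2 of the 7 genes, 2.59% with at least 4 and 2.36% with at least 1% of UMIs in them, a limit added after seeing the data. The lowest p38KO share over 6 settings was 2.36% and the highest in another library 0.157%. Against the other kept cells, the 249 higher genes became 523 by the mean over cells, 592 with 1 CPM added in place of 10, 391 at 1% of UMIs and 455 when cells meeting another class rule were also left out. The 655 lower genes became 1154, 2449, 1629 and 2014 in the same order, and 1079 with at least 4 of the 7 genes. With the median log2 ratio set to 0, 322 genes were higher and 457 lower. Against p38i members, 1567 higher and 481 lower of 4472 genes became 939 and 307 of 3399 with at least 4 genes. At 1% they became 560 and 239 of 2596. Against vehicle members, 3087 and 645 of 4394 genes (70.3% and 14.7%) became 1417 and 420 of 2506 (56.5% and 16.8%) at 1%. The share of lower genes thus rose while their number fell. All settings at 1%, and those without other classes, were added after seeing the data. The cause of these moves was not tested. Depth limits the comparison with the 8 members of the other libraries, since those of vehicle held 6365 UMIs and those of p38i 24967.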
